A study of Mus musculus with 12 samples.

Results

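Mouse neural stem cells that had been kept for 7 days in leukaemia inhibitory factor (LIF) plus noggin were compared with the proliferating neurosphere cells from which such cultures start. The comparison uses 8 of the 12 arrays of the series, chosen by their labelled group: 4 labelled LIF.NOG and 4 labelled Neurosphere. All cells came from the subventricular tissue of CD1 mice at postnatal day 1 and were grown as neurospheres in 20 ng/ml EGF, infected with a retrovirus after passage 1, grown for 3 more days and sorted for GFP by FACS. In the Neurosphere group the virus was a control GFP retrovirus and RNA was taken from the sorted neurospheres. In the LIF.NOG group the virus was GFAP-GFP, with GFP under the mouse GFAP promoter, and the sorted cells were plated at a density of 20 per microlitre in 1 ng/ml EGF with LIF at 20 ng/ml and noggin at 250 ng/ml. Both factors were added again at day 3, at a lower dose, and RNA was taken at day 7. The virus and its promoter, the EGF dose, the days in culture, the plating and the factors all change together between these groups, so their parts cannot be told apart. The remaining 4 arrays hold cells treated the same way with 20 ng/ml BMP4 in place of LIF and noggin. The labels do not say whether replicates are separate litters or cultures, so the p-values rest on a spread between arrays that could be technical.

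LIF is a cytokine that binds the receptor chain Lifr, which pairs with gp130, the product of Il6st. The paired receptor activates JAK kinases, and these phosphorylate Stat3, a transcription factor that enters the nucleus and switches on targets such as the astrocyte filament gene Gfap and the feedback inhibitor Socs3. Noggin is a secreted protein that holds BMP ligands away from their receptors, and EGF keeps neural stem cells dividing as floating spheres.

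Gene expression was measured on Illumina bead arrays. Values are normalised log2 intensities, listed for arrays 1 to 4 of a group in that order, and a difference is LIF.NOG minus Neurosphere on the log2 scale with its standard error (SE, n = 4 arrays per group). A gene was called where limma's adjusted p was under 0.05 over all 10787 genes tested. The 33 gene lists and 9 marker lists used below name 1051 genes, of which 768 were tested. A gene was tested where a probe of it was detected on at least 4 of the 12 arrays, so most genes that are off in all groups drop out of the counts. A gene could pass through the arrays of 1 group alone, so a list's count and median can lean towards that group. A gene counted as detected on an array where its probe's detection p was under 0.05, and where a group had it on at most 2 arrays, or averaged below the detection floor, the change is given as "at least N-fold", against the lowest detected signal. Between 38.6% and 41.6% of probes were detected per array. Of the genes tested, 3569 were called, which is 33.1% of them, with 1785 higher in LIF.NOG (16.5%) and 1784 lower (16.5%). The rises were larger: 178 genes rose at least 4-fold and 53 at least 8-fold, against 34 and 2 that fell as far. LIF.NOG 2 stood apart from its group, with a mean correlation with the other LIF.NOG arrays of 0.961, against 0.975 to 0.980 for the others. It was the lowest LIF.NOG array for 59.5% of the genes called higher and the highest for 65.9% of those called lower, so on it many values lay closer to the Neurosphere arrays. Without it, 4347 genes were called (40.3%). The columns of the authors' processed values come in 2 row orders, the first holding Neurosphere 2 to 4 and LIF.NOG 1 to 3. In the non-normalised signals used here only Neurosphere 1 stood in another order. Within the 6 arrays of the first row order alone 1694 genes were called. The size of a change depends on the background correction for dim genes, and on which probe of a gene is read where there are several: the brightest is used here, and the mean of the probes is given where it moves a fold by over 1.5 times.

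Some genes of the LIF receptor pathway rose, among them Osmr, Stat3 and Socs3, while the LIF receptor chains themselves did not pass the test or were not detected. Of 8 tested genes for gp130-family ligands and receptors 2 rose and none fell, and of 15 tested JAK, STAT and feedback genes 6 rose and none fell, or 25% and 40% called against 33.1% of all genes. The median difference was 0.09 over the first list and 0.18 over the second, against -0.01 over all genes tested. Osmr, the oncostatin M receptor chain that pairs with gp130, was detected on no Neurosphere array and on every LIF.NOG array. Its values were 4.49, 4.37, 4.53 and 4.51 on the Neurosphere arrays and 8.40, 8.03, 7.76 and 8.16 on the LIF.NOG arrays. The groups did not overlap and the rise was at least 9.13-fold. The Osmr difference was 3.61 ± 0.38, adjusted p = 1.8e-05. Il6ra, the chain that binds interleukin 6, read 4.48, 4.48, 4.50 and 4.77 on the Neurosphere arrays and 5.96, 7.93, 5.57 and 5.64 on the LIF.NOG arrays. Every LIF.NOG array was above every Neurosphere array, LIF.NOG 2 stood highest by a wide margin, and the rise was at least 2.61-fold. The Il6ra difference was 1.72 ± 0.39, adjusted p = 0.00417; 1.17 without LIF.NOG 2; 1.13 with its probes averaged. Il6ra was not called on the authors' processed values, where its difference was 0.52, adjusted p = 0.0584. The receptor for LIF itself, Lifr, was detected on 2 Neurosphere arrays and on no LIF.NOG array, at 4.96, 5.12, 4.72 and 4.53 on the Neurosphere arrays and 4.70, 4.79, 4.65 and 4.69 on the LIF.NOG arrays, and its difference of -0.13 ± 0.13, adjusted p = 0.515 did not pass the test. Il6st has probes on the array but none was detected on any of the 8 arrays, so gp130 itself is not described here. The ligand gene Lif read 5.38, 5.70, 5.41 and 6.06 on the Neurosphere arrays and 5.76, 6.44, 5.94 and 5.71 on the LIF.NOG arrays, with overlapping groups and a difference of 0.32 ± 0.18, adjusted p = 0.206.

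Stat3 and 3 of the cytokine-induced inhibitors rose. Stat3 read 10.04, 9.93, 10.06 and 10.44 on the Neurosphere arrays and 12.13, 11.81, 12.20 and 12.35 on the LIF.NOG arrays, with the 4 arrays of each group lying close together and apart from the other group. The Stat3 difference was 2.00 ± 0.14, adjusted p = 6.92e-07. Socs3, which blocks JAK activity at gp130 receptors, read 5.91, 5.86, 6.31 and 6.64 on the Neurosphere arrays and 10.20, 9.74, 10.55 and 11.52 on the LIF.NOG arrays. The lowest LIF.NOG array lay more than 3 log2 units above the highest Neurosphere array, and the difference was 4.33 ± 0.33, adjusted p = 1.29e-06. Socs2, a feedback inhibitor best known from growth hormone signalling, read 7.20, 7.44, 9.21 and 9.06 on the Neurosphere arrays and 11.41, 9.12, 11.00 and 12.16 on the LIF.NOG arrays, so LIF.NOG 2 lay inside the range of the Neurosphere arrays. The Socs2 difference was 2.69 ± 0.58, adjusted p = 0.00321; 3.30 without LIF.NOG 2. Cish, another STAT-induced inhibitor, read 6.27, 5.97, 6.14 and 6.85 on the Neurosphere arrays and 7.68, 6.67, 7.63 and 8.35 on the LIF.NOG arrays, again with LIF.NOG 2 inside the Neurosphere range. The Cish difference was 1.27 ± 0.29, adjusted p = 0.00461. Within the 6 arrays of the first row order neither passed the test, at 1.94, adjusted p = 0.0815 for Socs2 and 1.00, adjusted p = 0.0748 for Cish. The kinase gene Jak2, named here after its values were seen, rose too, by 1.15 ± 0.15 (adjusted p = 8.04e-05; 0.52 with its probes averaged). Jak1, the sixth gene called, sat at the threshold, at 0.70 ± 0.25 (adjusted p = 0.0449). It was not called in 13 of 20 alternative settings, among them leaving out any 1 of LIF.NOG 1, LIF.NOG 2 or the 4 Neurosphere arrays. Its difference ranged from 0.48 to 0.87 over the 20 settings.

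**Figure D1:**
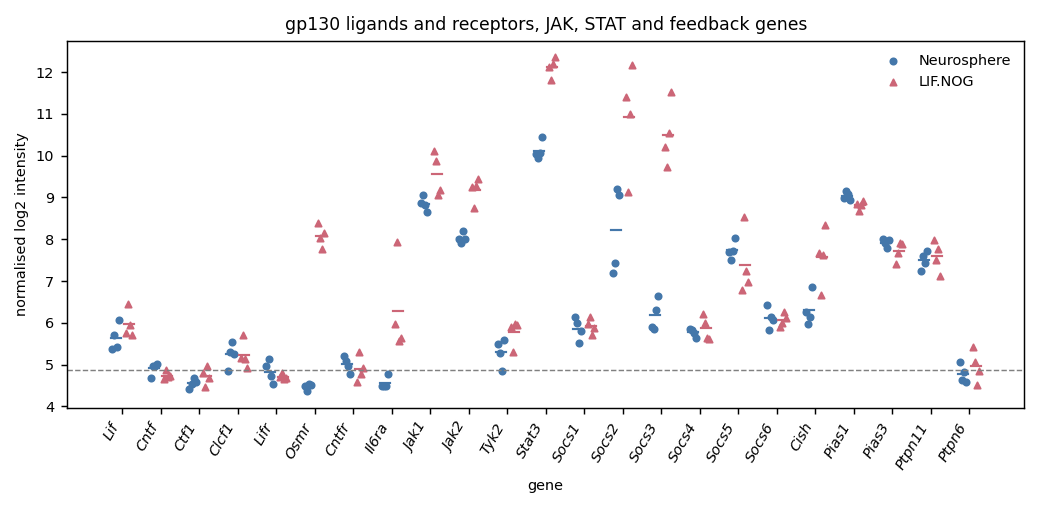
Normalised log2 intensity (y axis) of each tested gene of the gp130 and JAK, STAT and feedback lists (x axis), with 1 point per array, circles for Neurosphere and triangles for LIF.NOG, and a bar at each group's mean. The dashed line is the mean over the 8 arrays of the lowest signal among detected probes; the groups of Osmr, Il6ra, Stat3, Socs3 and Jak2, among others, do not overlap, and Osmr and Il6ra lie under the line on all Neurosphere arrays.

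Promoter windows of 300 bases, from 250 before to 50 after the gene start, were read from RefSeq (mouse build GRCm38.p6) for 8769 of the 10787 genes tested, and searched on both strands for TTCNNNGAA, the spacing of letters that STAT dimers bind. The 3 windows below belong to called genes of the pathway that hold it, with each match in capitals. They are shown so that the letters can be seen in place. The windows of Osmr, Il6ra, Stat3 and Jak2, which were also called, hold no match. Socs3 lies at chr11:117969317-117969616 on the minus strand, Cish at chr9:107296409-107296708 on the plus strand and Gfap at chr11:102897151-102897450 on the minus strand, and each is printed 5′ to 3′ along its own gene.
Socs3: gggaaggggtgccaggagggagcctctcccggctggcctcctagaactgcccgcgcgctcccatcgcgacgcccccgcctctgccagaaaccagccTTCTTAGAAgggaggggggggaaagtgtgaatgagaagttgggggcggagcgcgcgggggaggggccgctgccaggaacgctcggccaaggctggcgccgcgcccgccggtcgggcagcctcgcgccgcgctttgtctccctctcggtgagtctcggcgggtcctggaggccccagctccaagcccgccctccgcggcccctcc
Cish: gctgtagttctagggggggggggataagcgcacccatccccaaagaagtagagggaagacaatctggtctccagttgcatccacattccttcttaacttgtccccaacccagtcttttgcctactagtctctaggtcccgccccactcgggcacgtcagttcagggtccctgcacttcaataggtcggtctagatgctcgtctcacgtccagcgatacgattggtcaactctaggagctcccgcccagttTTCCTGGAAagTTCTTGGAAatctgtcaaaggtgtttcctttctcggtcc
Gfap: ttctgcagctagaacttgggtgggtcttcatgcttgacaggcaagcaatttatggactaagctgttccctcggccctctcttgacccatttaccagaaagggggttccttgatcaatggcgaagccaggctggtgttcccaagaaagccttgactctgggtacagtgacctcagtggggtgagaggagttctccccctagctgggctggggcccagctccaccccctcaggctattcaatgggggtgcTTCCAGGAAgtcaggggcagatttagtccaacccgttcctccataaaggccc
Cish holds 2 matches side by side just after its start, and Socs3 and Gfap hold 1 each. Some genes have several windows, and a gene was counted where any of its windows held a match. Of all genes with a window 8.45% held the letters, against 9.34% of those called higher and 8.15% of those called lower. Among genes that rose at least 4-fold the share was 18.2%, or 24 of 132 genes with a window. Among those that fell at least 4-fold it was near that, at 17.2%, or 5 of 29. A match describes letters in the window and says nothing of binding in these cells. Gfap itself was detected on 1 Neurosphere array and read 4.33, 4.55, 4.76 and 5.27 on the Neurosphere arrays and 11.79, 8.77, 11.01 and 12.33 on the LIF.NOG arrays. The rise was at least 63.8-fold, and LIF.NOG 2 stood lowest in its group. The Gfap difference was 6.25 ± 0.59, adjusted p = 7.84e-06; 6.98 without it; 5.08 with its probes averaged. The sort before plating used GFP driven by the mouse GFAP promoter in the LIF.NOG group only, so Gfap was linked to how those cells were chosen.

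**Figure D2:**
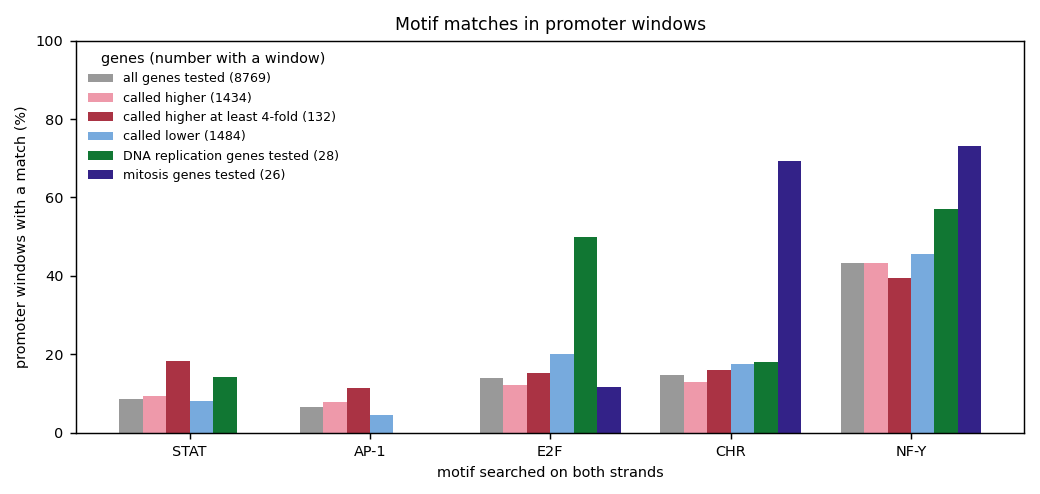
Share of genes with a match in any of their 300-base promoter windows (y axis, percent, labelled as windows but counted by gene) for each motif (x axis). There is 1 bar per set of genes, with the number of genes that have a window in the legend. STAT letters were found for 18.2% of genes that rose at least 4-fold and, not drawn, 17.2% of those that fell as far, against 8.45% of all. CHR letters were found for 69.2% of mitosis genes against 14.6% of all.

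Inflammatory and acute phase genes that are known to lie under STAT3 or NF-kappaB were higher or not called, with 1 exception. Of 12 tested complement and acute phase genes, from 25 listed, 6 rose and none fell (median difference 1.31). Of 13 tested NF-kappaB and TNF response genes 8 rose and 1 fell (median 0.80). That is 50% and 69.2% called, against 33.1% of all genes. Serpina3n, A2m and Cp were detected on 0, 1 and 2 Neurosphere arrays and on 4 LIF.NOG arrays. A gene could enter the test through the LIF.NOG arrays alone, so these counts and medians can lean towards rises. Nfkbiz, a nuclear IkappaB protein that works with NF-kappaB on a subset of its targets, read 8.83, 8.74, 8.43 and 8.56 on the Neurosphere arrays and 11.83, 11.43, 11.20 and 11.44 on the LIF.NOG arrays. The Nfkbiz difference was 2.84 ± 0.16, adjusted p = 9.95e-08. Cxcl1, a chemokine that attracts neutrophils, was not detected in neurospheres and read 4.47, 4.59, 4.62 and 4.47 on the Neurosphere arrays and 7.69, 8.98, 5.68 and 6.64 on the LIF.NOG arrays. It varied widely among the LIF.NOG arrays, all of which lay above all Neurosphere arrays, and the rise was at least 5.11-fold. Vcam1, an adhesion molecule also carried by subventricular stem cells, rose by 1.69 ± 0.29 (0.42 with its probes averaged), and Nfkbia, the inhibitor IkappaB-alpha, by 1.30 ± 0.19. The 1 gene of that list that fell was the chemokine Cxcl12, which went from detection on 3 Neurosphere arrays to none of the LIF.NOG arrays (difference -0.75 ± 0.14). Serpina3n, a secreted protease inhibitor and marker of reactive astrocytes, was the largest rise of all genes: it read 4.45, 4.48, 4.58 and 4.68 on the Neurosphere arrays and 12.15, 10.39, 10.60 and 11.62 on the LIF.NOG arrays, at least 78.5-fold. A2m, which encodes the protease trap alpha-2-macroglobulin, read 5.15, 4.76, 4.80 and 4.81 on the Neurosphere arrays and 8.46, 8.47, 8.26 and 8.13 on the LIF.NOG arrays, a rise of at least 10.3-fold. Cp, which encodes the copper-carrying ferroxidase ceruloplasmin, rose at least 7.41-fold, at 4.84, 4.84, 5.14 and 5.17 on the Neurosphere arrays and 8.74, 6.56, 8.17 and 8.15 on the LIF.NOG arrays, with LIF.NOG 2 lowest in its group. The Cp difference was 2.91 ± 0.37, adjusted p = 9e-05; 1.97 with its probes averaged. Itih3, an inter-alpha-trypsin inhibitor heavy chain that binds hyaluronan, read 4.49, 4.46, 5.12 and 5.15 on the Neurosphere arrays and 9.81, 8.67, 8.52 and 9.48 on the LIF.NOG arrays and rose at least 17.3-fold. Of 13 tested genes of MHC class I and antigen processing only Psmb8, Psmb9 and Tap2 were called, all higher. That is 23.1% called against 33.1% of all genes. The immunoproteasome subunit Psmb8 read 4.62, 4.70, 5.62 and 5.13 on the Neurosphere arrays and 6.93, 7.22, 6.49 and 5.94 on the LIF.NOG arrays. The peptide transporter subunit Tap2 read 6.69, 6.84, 6.94 and 6.98 on the Neurosphere arrays and 8.32, 8.63, 7.99 and 8.22 on the LIF.NOG arrays.

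Genes of the BMP pathway moved both ways, in a share close to the background. Of 17 tested, 4 rose and 2 fell, or 35.3% against 33.1% of all genes, with a median difference of 0.04. Among receptors and mediators, Smad1, which carries the BMP signal to the nucleus, read 8.91, 8.86, 9.10 and 8.97 on the Neurosphere arrays and 10.17, 9.94, 10.00 and 10.03 on the LIF.NOG arrays. The Smad1 difference was 1.07 ± 0.13, adjusted p = 6.12e-05; 0.40 with its probes averaged. The receptor gene Bmpr1a rose by 0.51 ± 0.16 (adjusted p = 0.0221), a call that was lost in 3 of 20 alternative settings, among them without LIF.NOG 1 (0.47, adjusted p = 0.0633) and without Neurosphere 2 (0.48, adjusted p = 0.0594). Bmpr1b gave overlapping groups and a difference of 0.31 ± 0.33, adjusted p = 0.522. Among ligands and antagonists, Bmp7 read 7.36, 7.10, 6.89 and 6.61 on the Neurosphere arrays and 5.44, 5.33, 5.08 and 5.79 on the LIF.NOG arrays, with every LIF.NOG array below every Neurosphere array. The Bmp7 difference was -1.58 ± 0.17, adjusted p = 2.31e-05. Chrd, which encodes the secreted BMP antagonist chordin, rose by 1.08 ± 0.28, but LIF.NOG 2 lay inside the Neurosphere range at 6.44, 6.53, 6.68 and 6.99 on the Neurosphere arrays and 7.95, 6.90, 7.99 and 8.13 on the LIF.NOG arrays. Bmp4, Smad7 and Nog have probes that were not detected on any of the 8 arrays. The direct BMP target Id1 fell by 0.90 (SE 0.19, adjusted p = 0.00303), reading 8.17, 8.19, 7.67 and 8.13 on the Neurosphere arrays and 7.56, 6.68, 7.43 and 6.91 on the LIF.NOG arrays. Id4, another inhibitor of DNA binding, moved the other way: it read 5.38, 5.24, 5.86 and 5.57 on the Neurosphere arrays and 8.60, 6.95, 7.55 and 8.38 on the LIF.NOG arrays, with no overlap. The Id4 difference was 2.35 ± 0.30, adjusted p = 8.03e-05; 1.52 with its probes averaged. Within the 6 arrays of the first row order Id1 gave -0.77, adjusted p = 0.081 and Chrd 0.88, adjusted p = 0.0834, and with the probes of a gene averaged Id1 gave -0.37, adjusted p = 0.104.

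Early response transcription factors made up the list with the highest median. Of 19 tested AP-1, Egr, Klf and Nr4a genes 15 rose and 1 fell, or 84.2% called against 33.1% of all genes. The median difference was 2.09. Junb, a Jun-family partner in AP-1 dimers that cytokines also induce through STAT3, read 5.50, 5.68, 5.22 and 5.57 on the Neurosphere arrays and 9.17, 8.88, 9.31 and 9.85 on the LIF.NOG arrays. The Junb difference was 3.81 ± 0.22, adjusted p = 1.23e-07. Klf4, a zinc-finger factor known to restrain division, read 5.08, 4.81, 5.65 and 5.47 on the Neurosphere arrays and 8.61, 8.32, 8.42 and 8.82 on the LIF.NOG arrays, and its groups lay more than 2 log2 units apart. The Klf4 difference was 3.29 ± 0.21, adjusted p = 3.64e-07; 2.50 with its probes averaged. Egr4, which was on no list but among the 25 largest rises, read 7.84, 7.77, 7.71 and 8.60 on the Neurosphere arrays and 11.87, 10.19, 12.42 and 12.35 on the LIF.NOG arrays. The Egr4 difference was 3.73 ± 0.42, adjusted p = 3.23e-05. Fos, the founding member of its AP-1 family, read 8.38, 8.44, 8.35 and 8.77 on the Neurosphere arrays and 14.22, 13.30, 13.99 and 14.45 on the LIF.NOG arrays, with no overlap. The Fos difference was 5.51 ± 0.20, adjusted p = 3.28e-09. Fosb was detected on no Neurosphere array and rose at least 39-fold. The gene that fell was Klf9, a factor induced by thyroid hormone and glucocorticoids, by 0.74 (adjusted p = 0.0135), with LIF.NOG 2 inside the Neurosphere range; within the 6 arrays of the first row order it gave -0.67, adjusted p = 0.119.

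The 25 largest rises held several genes outside those groups. Ly6h, a small membrane-anchored protein of the brain, was detected on no Neurosphere array and read 4.48, 4.44, 4.53 and 4.89 on the Neurosphere arrays and 9.99, 7.77, 8.38 and 10.45 on the LIF.NOG arrays, a rise of at least 19.1-fold. The Ly6h difference was 4.56 ± 0.48, adjusted p = 1.68e-05; 3.89 with its probes averaged. Cacng5, an auxiliary subunit of AMPA receptors, read 5.88, 5.59, 6.39 and 5.68 on the Neurosphere arrays and 9.79, 8.59, 10.65 and 11.01 on the LIF.NOG arrays. The Cacng5 difference was 4.13 ± 0.46, adjusted p = 3.04e-05. Synpo, which encodes the actin-binding protein synaptopodin, read 5.81, 5.86, 6.20 and 5.93 on the Neurosphere arrays and 10.17, 11.18, 9.43 and 9.38 on the LIF.NOG arrays, and here LIF.NOG 2 was the highest array of its group. The Synpo difference was 4.09 ± 0.33, adjusted p = 2.41e-06. Lgals3, the sugar-binding lectin galectin-3 that glia and macrophages make after injury, read 4.56, 4.53, 5.72 and 5.60 on the Neurosphere arrays and 9.04, 8.68, 8.61 and 9.49 on the LIF.NOG arrays and rose at least 12.9-fold. Prss35, which encodes a serine protease-like protein, rose at least 14.7-fold, Glycam1, a mucin-like glycoprotein, by 4.22 ± 0.45 and Lrp4, a receptor of the low density lipoprotein family, by 3.76 ± 0.31 (1.76 with its probes averaged). Retreg1, which encodes a receptor for the turnover of endoplasmic reticulum, rose by 3.62 ± 0.35 and Cyp4f14, a cytochrome P450 of fatty acid oxidation, at least 8.3-fold. In all, 122 genes were detected on all 4 LIF.NOG arrays and on no Neurosphere array, and 116 of these were called higher. These genes were picked by detection on the same arrays, so their calls are no separate result. They include Slc14a1, a urea transporter of astrocytes, at 4.35, 4.32, 4.34 and 4.46 on the Neurosphere arrays and 8.38, 6.78, 7.16 and 7.73 on the LIF.NOG arrays (difference 3.14 ± 0.30, adjusted p = 7.84e-06; 1.10 with its probes averaged), and Gpnmb, a glycoprotein of lysosomes and melanosomes, at 4.43, 4.38, 4.69 and 4.64 on the Neurosphere arrays and 7.46, 5.84, 8.23 and 8.73 on the LIF.NOG arrays. In both genes LIF.NOG 2 was the lowest array of its group and still above every Neurosphere array.

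**Figure D3:**
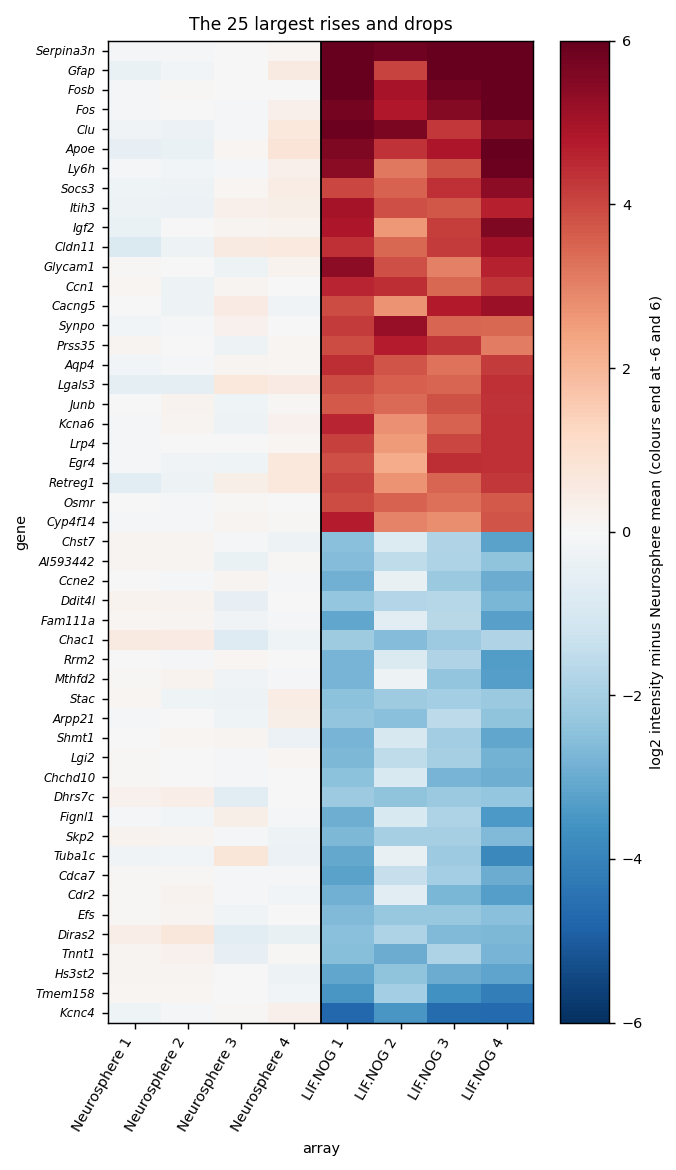
Log2 intensity minus the Neurosphere mean (colour, ending at -6 and 6) for the 25 genes with the largest rises and the 25 with the largest drops (rows) on each of the 8 arrays (columns). Rises fill all 4 LIF.NOG columns, and LIF.NOG 2 is paler than the others for most of the drops.

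Genes for lysosomes and lipid carriers were more often higher than lower in the LIF.NOG cells. Of 26 tested lysosomal genes 19 rose and 2 fell (median difference 0.67), and of 18 tested genes of lipoproteins and lipid efflux 10 rose and 2 fell (median 0.49). That is 80.8% and 66.7% called, against 33.1% of all genes. Apoe and Clu, 2 apolipoproteins that astrocytes secrete, were among the 25 largest rises. Apoe read 7.37, 7.46, 8.01 and 8.67 on the Neurosphere arrays and 13.49, 12.20, 12.74 and 13.95 on the LIF.NOG arrays, and its difference was 5.22 ± 0.34, adjusted p = 3.73e-07. Clu read 6.40, 6.27, 6.54 and 7.23 on the Neurosphere arrays and 12.50, 12.25, 10.85 and 12.12 on the LIF.NOG arrays, and its difference was 5.32 ± 0.32, adjusted p = 1.58e-07. In both the groups lay far apart. Cd63, a tetraspanin of late endosomes, read 11.82, 11.72, 12.04 and 12.14 on the Neurosphere arrays and 13.76, 13.55, 13.74 and 14.07 on the LIF.NOG arrays. The Cd63 difference was 1.85 ± 0.14, adjusted p = 1.29e-06. The cathepsin protease Ctsb read 10.99, 11.02, 10.92 and 11.01 on the Neurosphere arrays and 12.71, 12.61, 12.63 and 12.96 on the LIF.NOG arrays; the 4 arrays of each group lay close together. The Ctsb difference was 1.74 ± 0.14, adjusted p = 2.16e-06. Ctsd, a second cathepsin, rose by 1.63 ± 0.23, and LIF.NOG 2 was its lowest array, at 9.23, 9.19, 9.41 and 9.66 on the Neurosphere arrays and 11.04, 10.45, 11.30 and 11.23 on the LIF.NOG arrays. Abcg1, which exports cholesterol to lipoproteins, read 4.99, 4.89, 5.39 and 5.26 on the Neurosphere arrays and 8.01, 5.96, 7.87 and 8.69 on the LIF.NOG arrays: LIF.NOG 2 stood closest to the Neurosphere arrays. The Abcg1 difference was 2.50 ± 0.46, adjusted p = 0.00107. Apoc1, a small apolipoprotein, was detected on no Neurosphere array and rose at least 4.34-fold, at 4.46, 4.39, 4.57 and 4.41 on the Neurosphere arrays and 7.38, 6.06, 7.20 and 7.41 on the LIF.NOG arrays. Within the 6 arrays of the first row order 10 lysosomal and 6 lipoprotein genes were called higher.

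Genes for making sterols were lower or not called. Of 19 tested genes of sterol synthesis and uptake 9 fell and none rose (median -0.68), or 47.4% called against 33.1% of all genes. Lss, which encodes lanosterol synthase, read 9.14, 8.87, 9.54 and 9.44 on the Neurosphere arrays and 7.86, 8.75, 7.81 and 7.28 on the LIF.NOG arrays, and Stard4, a cytosolic cholesterol carrier, read 10.32, 10.38, 10.55 and 10.29 on the Neurosphere arrays and 9.26, 9.87, 9.14 and 8.23 on the LIF.NOG arrays. In both, LIF.NOG 2 lay nearest to the Neurosphere arrays, and the differences were -1.33 ± 0.36, adjusted p = 0.0121 and -1.26 ± 0.29, adjusted p = 0.00443. Tm7sf2, a sterol reductase, fell by 1.05 (adjusted p = 0.00403) and Fdps, which makes farnesyl diphosphate, fell by 1.13 (adjusted p = 0.014). Without LIF.NOG 2, 13 genes of the list were called lower, and within the first row order 4; Fdps then gave -0.85, adjusted p = 0.0729, and Lss with its probes averaged gave -0.59, adjusted p = 0.051. Fatty acid synthesis was mixed, with 2 of 17 tested genes higher and 3 lower, or 29.4% called against 33.1% of all genes. Gpam, the first acyltransferase of triglyceride synthesis, rose by 1.57 ± 0.19 while Elovl2, which lengthens polyunsaturated fatty acids, fell by 0.83.

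Genes for channels and for transmitter handling moved both ways, with more of them higher than lower. Of 19 tested genes of potassium, chloride and water channels 8 rose and 4 fell, or 63.2% called against 33.1% of all genes. Their median difference of 0.39 was 0.04 without LIF.NOG 2. Of 17 tested genes for glutamate, GABA and glutamine 7 rose and 1 fell, or 47.1% called (median 0.44, and 0.47 without LIF.NOG 2). Aqp4, the water channel of astrocyte endfeet, read 8.35, 8.41, 8.69 and 8.61 on the Neurosphere arrays and 12.95, 12.29, 11.79 and 12.72 on the LIF.NOG arrays. The Aqp4 difference was 3.92 ± 0.20, adjusted p = 7.57e-08. Kcna6, a Shaker-type potassium channel, read 6.84, 7.13, 6.67 and 7.23 on the Neurosphere arrays and 11.53, 9.70, 10.49 and 11.37 on the LIF.NOG arrays. The Kcna6 difference was 3.81 ± 0.31, adjusted p = 2.65e-06. Kcnc4, a Shaw-type potassium channel, was the deepest drop of all genes: it read 9.05, 9.22, 9.37 and 9.60 on the Neurosphere arrays and 4.60, 5.83, 4.70 and 4.64 on the LIF.NOG arrays and was detected only on LIF.NOG 2 of its group, so the fall was at least 18.5-fold. Atp1b2, the sodium pump subunit of glia, rose by 2.49 ± 0.36. Glud1, which turns glutamate into alpha-ketoglutarate, read 10.74, 10.79, 10.64 and 10.90 on the Neurosphere arrays and 12.62, 12.21, 11.96 and 12.54 on the LIF.NOG arrays. The Glud1 difference was 1.57 ± 0.14, adjusted p = 6.54e-06. Slc38a3, a glutamine transporter, read 5.08, 4.58, 4.94 and 5.07 on the Neurosphere arrays and 6.56, 6.38, 6.32 and 6.69 on the LIF.NOG arrays. The GABA enzymes Gad1, which makes GABA, and Abat, which breaks it down, rose by 1.92 ± 0.43 and 1.67 ± 0.28. With the probes of a gene averaged the difference was 1.83 for Aqp4, 2.20 for Kcna6, -2.44 for Kcnc4, 1.07 for Gad1 and 0.92 for Abat. The main glutamate transporter of radial glia, Slc1a3, gave overlapping groups at 13.67, 13.82, 13.66 and 13.86 on the Neurosphere arrays and 14.02, 14.49, 13.60 and 13.71 on the LIF.NOG arrays (difference 0.20 ± 0.19, adjusted p = 0.48), and Glul, which makes glutamine, likewise (0.28 ± 0.26, adjusted p = 0.462).

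Secreted and matrix genes changed in both directions. Of 30 tested matrix genes 11 rose and 2 fell, or 43.3% called against 33.1% of all genes. Timp1, an inhibitor of matrix proteases that gp130 cytokines are known to induce, read 6.97, 7.07, 7.36 and 7.58 on the Neurosphere arrays and 10.04, 11.32, 10.70 and 10.06 on the LIF.NOG arrays, with LIF.NOG 2 highest. The Timp1 difference was 3.29 ± 0.37, adjusted p = 3.26e-05. Its relative Timp2 read 8.53, 8.60, 8.13 and 8.68 on the Neurosphere arrays and 11.62, 10.54, 10.62 and 11.36 on the LIF.NOG arrays. The Timp2 difference was 2.55 ± 0.31, adjusted p = 5.47e-05. Col16a1, a collagen chain, read 7.88, 8.01, 8.96 and 8.97 on the Neurosphere arrays and 11.87, 11.13, 11.52 and 12.29 on the LIF.NOG arrays, and Thbs2, a thrombospondin that astrocytes secrete and that promotes synapse formation, rose at least 9.81-fold, at 4.51, 4.72, 5.91 and 5.37 on the Neurosphere arrays and 9.26, 7.45, 8.57 and 8.92 on the LIF.NOG arrays. Of 23 tested growth and trophic factor genes 6 rose and 6 fell, or 52.2% called against 33.1% of all genes. Igf2, an insulin-like growth factor of the choroid plexus and meninges, read 5.15, 5.55, 5.69 and 5.75 on the Neurosphere arrays and 10.38, 8.15, 9.67 and 11.16 on the LIF.NOG arrays (difference 4.31 ± 0.47, adjusted p = 2.57e-05), and Igfbp5, which binds such factors, rose by 2.70 ± 0.29. Ccn1, a matrix-bound signalling protein, was detected on no Neurosphere array and rose at least 15.3-fold, at 4.77, 4.37, 4.81 and 4.66 on the Neurosphere arrays and 9.21, 9.10, 8.08 and 8.95 on the LIF.NOG arrays. The Ccn1 difference was 4.18 ± 0.22, adjusted p = 7.61e-08; 3.55 with its probes averaged. Fgf13, an intracellular relative of the FGFs that binds sodium channels, fell by 2.01 (adjusted p = 2.12e-05). Of 20 tested Wnt pathway genes 3 rose and none fell, a share close to the 16.5% of all genes called higher: Wnt5b at 5.58, 4.94, 4.97 and 4.95 on the Neurosphere arrays and 7.24, 7.50, 7.52 and 7.34 on the LIF.NOG arrays, Wnt7b, which rose at least 4.43-fold, and Dkk3, a secreted Dickkopf-family protein, at 5.73, 5.84, 5.75 and 5.28 on the Neurosphere arrays and 8.79, 9.44, 7.94 and 8.63 on the LIF.NOG arrays.

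Cell surface genes for adhesion, guidance and G protein signalling gave mixed counts. Of 25 tested adhesion genes 10 rose and 4 fell, or 56% called against 33.1% of all genes. Cntn2, an axonal and glial contactin, was detected on no Neurosphere array and read 4.36, 4.42, 4.53 and 4.83 on the Neurosphere arrays and 7.27, 6.77, 6.71 and 8.69 on the LIF.NOG arrays, a rise of at least 5.52-fold. Itga6, a laminin-binding integrin chain found on neural stem cells, read 10.52, 10.41, 10.19 and 9.94 on the Neurosphere arrays and 9.01, 8.92, 9.05 and 8.39 on the LIF.NOG arrays. The Itga6 difference was -1.42 ± 0.19, adjusted p = 0.000115. Of 27 tested axon guidance and Eph genes 6 rose and 1 fell, or 25.9% called against 33.1% of all genes. Efna1, an ephrin ligand, rose at least 2.43-fold, at 4.29, 4.80, 4.49 and 4.61 on the Neurosphere arrays and 5.98, 5.98, 6.26 and 6.48 on the LIF.NOG arrays. The gene that fell was Sema3a, which encodes a repulsive guidance ligand, at 7.58, 7.47, 7.50 and 7.29 on the Neurosphere arrays and 5.82, 6.62, 5.70 and 5.79 on the LIF.NOG arrays (difference -1.48 ± 0.20, adjusted p = 0.00014), and LIF.NOG 2 was the highest of its group. Of 26 tested genes for G protein coupled receptors and their regulators 9 rose and 7 fell, or 61.5% called against 33.1%. Rgs4, which shortens G protein signals, read 5.71, 5.32, 5.51 and 5.31 on the Neurosphere arrays and 7.75, 8.50, 7.28 and 7.71 on the LIF.NOG arrays, and Gng2, a G protein gamma subunit, read 9.26, 9.33, 9.28 and 9.24 on the Neurosphere arrays and 7.32, 7.36, 7.32 and 7.41 on the LIF.NOG arrays. The 4 LIF.NOG arrays of Gng2 lay very close to each other and far below the Neurosphere arrays. The Gng2 difference was -1.93 ± 0.13, adjusted p = 4.28e-07. Lpar1, a receptor for lysophosphatidic acid found on oligodendrocytes, rose at least 3.73-fold, a call not made on the authors' processed values (0.65, adjusted p = 0.0985).

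Several genes for metal-binding and detoxifying proteins rose, while most members of their list did not pass the test. Of 33 tested genes 11 rose and 2 fell (median 0.22), or 39.4% called against 33.1% of all genes. Mt2, a metallothionein, read 7.58, 7.47, 7.47 and 7.78 on the Neurosphere arrays and 10.93, 9.07, 9.86 and 10.75 on the LIF.NOG arrays (difference 2.57 ± 0.33, adjusted p = 8.61e-05), and Mt1 read 13.35, 13.37, 12.99 and 13.42 on the Neurosphere arrays and 14.85, 14.16, 14.70 and 14.92 on the LIF.NOG arrays. The Mt1 difference was 1.38 ± 0.16, adjusted p = 4.64e-05. Mt3, the brain metallothionein, rose by 0.98 ± 0.23 (adjusted p = 0.00577), but within the 6 arrays of the first row order gave 0.98, adjusted p = 0.0897. Mgst1, a microsomal glutathione transferase, read 8.39, 8.44, 8.52 and 8.19 on the Neurosphere arrays and 10.40, 9.75, 10.53 and 10.34 on the LIF.NOG arrays, and Gstm1, a cytosolic one, rose by 1.38 ± 0.20. Metallothionein genes are close relatives and their probes may read each other's RNA. Among 23 tested genes of endoplasmic reticulum stress and chaperones 4 rose and 3 fell, or 30.4% called against 33.1% of all genes. The small heat shock proteins Hspb1 and Hspb8 rose by 2.84 ± 0.32 and 2.50 ± 0.23. Chac1, which degrades glutathione and is induced by the stress factor ATF4, read 8.46, 8.44, 7.16 and 7.69 on the Neurosphere arrays and 5.83, 5.35, 5.75 and 6.14 on the LIF.NOG arrays (difference -2.17 ± 0.34, adjusted p = 0.000355), and Asns, the asparagine synthetase that ATF4 also induces, read 10.85, 10.80, 10.33 and 10.39 on the Neurosphere arrays and 9.20, 9.58, 9.19 and 9.13 on the LIF.NOG arrays. The Asns difference was -1.32 ± 0.19, adjusted p = 0.000204.

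DNA replication and mitosis genes fell almost without exception. Of 32 tested replication genes 31 fell and none rose, with a median difference of -1.45, and of 32 tested mitosis genes 29 fell and none rose, with a median of -1.55. That is 96.9% and 90.6% called, against 33.1% of all genes. Mcm2, a subunit of the replicative helicase, read 10.01, 9.98, 10.08 and 9.98 on the Neurosphere arrays and 7.64, 9.46, 8.39 and 7.22 on the LIF.NOG arrays. The Mcm2 difference was -1.84 ± 0.36, adjusted p = 0.00164. Rrm2, which makes deoxynucleotides, read 10.77, 10.63, 10.88 and 10.71 on the Neurosphere arrays and 7.98, 9.89, 8.94 and 7.40 on the LIF.NOG arrays. The Rrm2 difference was -2.19 ± 0.43, adjusted p = 0.00183. Cdk1, the kinase that drives entry into mitosis, read 11.16, 11.00, 11.10 and 11.00 on the Neurosphere arrays and 8.35, 10.35, 9.70 and 7.91 on the LIF.NOG arrays. The Cdk1 difference was -1.99 ± 0.45, adjusted p = 0.00427. In each of these genes LIF.NOG 2 was the highest LIF.NOG array, less than 1 log2 unit below the Neurosphere range, and LIF.NOG 4 was the lowest. Over all tested members, the median distance from the Neurosphere mean on LIF.NOG 1 to 4 was -1.97, -0.43, -1.23 and -2.10 for replication genes and -1.98, -0.70, -1.05 and -2.47 for mitosis genes. Aurka, a kinase of the spindle poles, fell by 2.00 (adjusted p = 0.0015) and Plk4, which starts centriole duplication, by 1.96 (adjusted p = 0.000742). With the probes of a gene averaged Cdk1 gave -1.26 and Plk4 -1.22. Within the 6 arrays of the first row order 18 replication and 19 mitosis genes were called lower. In bulk RNA, fewer dividing cells and less of these RNAs per cell cannot be told apart.

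The G1 machinery changed less evenly. Of 21 tested G1 cyclin, E2F, Rb and CDK inhibitor genes 8 fell and 1 rose (median -0.54), or 42.9% called against 33.1% of all genes. The riser was Rb1, which encodes the retinoblastoma protein that holds E2F factors in check, by 0.46 ± 0.15 (adjusted p = 0.0273). It was not called in 6 of 20 alternative settings, among them leaving out any 1 of LIF.NOG 1, 3 and 4 and Neurosphere 3 and 4, with differences from 0.38 without LIF.NOG 1 to 0.45 without LIF.NOG 4. Ccne2, an S phase cyclin, read 7.74, 7.64, 7.87 and 7.65 on the Neurosphere arrays and 4.85, 7.29, 5.50 and 4.75 on the LIF.NOG arrays, with LIF.NOG 2 just under the Neurosphere range (difference -2.12 ± 0.42, adjusted p = 0.00181); within the first row order it gave -1.84, adjusted p = 0.0528. E2f2, an E2F factor that switches on replication genes, read 8.65, 8.67, 8.81 and 8.67 on the Neurosphere arrays and 6.62, 7.64, 7.45 and 6.73 on the LIF.NOG arrays. The E2f2 difference was -1.59 ± 0.20, adjusted p = 8.46e-05. Ccnd2, a D-type cyclin of neural progenitors, read 13.69, 13.75, 13.80 and 13.59 on the Neurosphere arrays and 12.46, 13.92, 12.64 and 11.42 on the LIF.NOG arrays, so that the groups overlapped. The Ccnd2 difference was -1.10 ± 0.35, adjusted p = 0.0288; -1.54 without LIF.NOG 2. It was not called in 10 of 20 alternative settings, with differences of -0.70 without LIF.NOG 4 and -0.71, adjusted p = 0.216 within the first row order. Skp2, which marks the CDK inhibitor p27 for destruction and was among the 25 largest drops, read 11.10, 11.05, 10.82 and 10.59 on the Neurosphere arrays and 8.17, 8.91, 8.88 and 8.27 on the LIF.NOG arrays. The Skp2 difference was -2.33 ± 0.21, adjusted p = 5.2e-06; -1.66 with its probes averaged. The gene for p27, Cdkn1b, gave overlapping groups and a difference of 0.17 ± 0.22, adjusted p = 0.627, and Cdkn1c, which encodes p57, a difference of 0.22 ± 0.52, adjusted p = 0.804. Ccnd1, the cyclin that growth factors raise, read 13.61, 13.72, 13.52 and 13.54 on the Neurosphere arrays and 12.31, 14.34, 13.02 and 11.61 on the LIF.NOG arrays: LIF.NOG 2 was the highest of all 8 arrays. Its difference of -0.77 ± 0.40, adjusted p = 0.16 did not pass the test, and without LIF.NOG 2 it was -1.28, adjusted p = 0.000582. Of 16 tested histone and chromatin assembly genes 10 fell and 2 rose, or 75% called against 33.1%. The risers were H2bc4, at 9.57, 9.24, 9.00 and 9.58 on the Neurosphere arrays and 11.49, 10.67, 11.37 and 11.49 on the LIF.NOG arrays, and H1f2, at 10.14, 10.23, 10.32 and 11.49 on the Neurosphere arrays and 12.64, 10.60, 12.63 and 12.40 on the LIF.NOG arrays, where LIF.NOG 2 lay inside the Neurosphere range. The H1f2 difference was 1.52 ± 0.41, adjusted p = 0.0107; 1.27, adjusted p = 0.172 within the first row order. Uhrf1, which guides DNA methylation to new strands, fell by 1.56 (adjusted p = 0.00886) but gave -1.18, adjusted p = 0.0612 within the first row order.

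The promoters of these genes are shown because they carry the letters of 2 known cell cycle elements. The CHR element, read as TTTGAA, serves genes of late phases of the cycle, and E2F sites, read as TTCCCGC or TTGGCGC, serve replication genes, both searched on both strands. Cdk1 lies at chr10:69352863-69353162 and Cdc20 at chr4:118437294-118437593, both on the minus strand, with the CHR letters in capitals. Mcm5 lies at chr8:75109259-75109558 and Cdt1 at chr8:122567765-122568064, both on the plus strand, with the E2F letters, on either strand, in capitals.
Cdk1: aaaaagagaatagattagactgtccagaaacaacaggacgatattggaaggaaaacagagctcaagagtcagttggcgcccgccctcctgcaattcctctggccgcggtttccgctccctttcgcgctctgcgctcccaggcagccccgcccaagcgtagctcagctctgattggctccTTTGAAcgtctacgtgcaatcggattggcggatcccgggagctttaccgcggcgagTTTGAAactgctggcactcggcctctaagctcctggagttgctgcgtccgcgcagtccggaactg
Cdc20: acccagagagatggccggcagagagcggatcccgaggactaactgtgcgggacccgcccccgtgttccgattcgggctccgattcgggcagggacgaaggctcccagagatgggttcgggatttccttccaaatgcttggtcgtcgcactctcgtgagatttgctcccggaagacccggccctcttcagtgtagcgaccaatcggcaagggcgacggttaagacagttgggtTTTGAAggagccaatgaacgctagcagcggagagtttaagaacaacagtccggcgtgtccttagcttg
Mcm5: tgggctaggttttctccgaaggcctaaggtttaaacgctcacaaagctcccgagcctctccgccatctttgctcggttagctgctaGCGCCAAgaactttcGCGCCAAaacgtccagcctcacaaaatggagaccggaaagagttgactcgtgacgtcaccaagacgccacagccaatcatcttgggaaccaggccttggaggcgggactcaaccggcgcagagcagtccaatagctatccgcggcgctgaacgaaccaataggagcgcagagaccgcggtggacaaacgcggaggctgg
Cdt1: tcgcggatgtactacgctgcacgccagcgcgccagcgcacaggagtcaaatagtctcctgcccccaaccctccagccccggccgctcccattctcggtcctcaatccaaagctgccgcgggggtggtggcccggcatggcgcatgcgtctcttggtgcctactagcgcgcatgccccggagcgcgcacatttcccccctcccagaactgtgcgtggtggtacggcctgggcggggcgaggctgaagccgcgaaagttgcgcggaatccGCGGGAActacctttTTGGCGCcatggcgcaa
Cdc20, which activates the ligase that ends mitosis, read 11.09, 11.01, 11.12 and 10.99 on the Neurosphere arrays and 8.73, 10.24, 9.87 and 8.27 on the LIF.NOG arrays. Mcm5, another helicase subunit, read 12.20, 12.32, 12.50 and 12.46 on the Neurosphere arrays and 10.02, 11.76, 10.96 and 9.55 on the LIF.NOG arrays, and Cdt1, which loads the helicase onto origins, read 9.96, 9.95, 10.28 and 10.13 on the Neurosphere arrays and 7.63, 9.87, 8.53 and 7.34 on the LIF.NOG arrays. In all 3 genes every LIF.NOG array lay below every Neurosphere array, LIF.NOG 2 the least far. Within the 6 arrays of the first row order Cdt1 gave -1.44, adjusted p = 0.0798. The CHR letters were found for 18 of 26 tested mitosis genes with a window, or 69.2%, against 14.6% of all genes with a window. The NF-Y letters CCAAT were found for 73.1% of these mitosis genes against 43.2% of all. The E2F letters were found for 14 of 28 tested replication genes with a window, or 50%, against 13.8% of all and 20.1% of genes called lower. The AP-1 letters TGANTCA were found for 7.88% of genes called higher, 4.51% of those called lower and 6.58% of all, again counted among genes with a window.

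Genes for making ribosomes and for respiration were lower or not called. Of 20 tested ribosome biogenesis genes 18 fell and none rose (median -0.83), or 90% called against 33.1% of all genes. Nop56, a core protein of the particles that methylate ribosomal RNA, read 9.42, 9.28, 9.31 and 8.95 on the Neurosphere arrays and 7.37, 8.94, 7.84 and 7.72 on the LIF.NOG arrays. The Nop56 difference was -1.27 ± 0.26, adjusted p = 0.00242; -1.13, adjusted p = 0.0715 within the first row order. Gar1, of the particles that make pseudouridine, read 12.18, 12.16, 12.02 and 11.91 on the Neurosphere arrays and 10.52, 11.54, 10.92 and 10.53 on the LIF.NOG arrays. The Gar1 difference was -1.19 ± 0.22, adjusted p = 0.00109. The ribosomal proteins themselves moved less: 5 of 26 tested fell and 1 rose (median -0.12), or 23.1% called against 33.1% of all genes. Of 41 tested genes of oxidative phosphorylation 20 fell and none rose, or 48.8% called against 33.1%, with small changes (median -0.31). Ndufb2, a subunit of complex I, read 6.47, 6.12, 6.46 and 6.07 on the Neurosphere arrays and 4.82, 5.64, 5.02 and 5.17 on the LIF.NOG arrays (difference -1.12 ± 0.23, adjusted p = 0.00207), and Cox7a2, a subunit of complex IV, read 9.20, 9.12, 9.41 and 9.18 on the Neurosphere arrays and 8.27, 8.50, 8.56 and 8.25 on the LIF.NOG arrays. The Cox7a2 difference was -0.84 ± 0.13, adjusted p = 0.000365. Of 28 tested proteasome genes 7 fell and 1 rose, or 28.6% called against 33.1% of all genes. The riser was Psme1, an interferon-induced activator subunit, by 0.91 ± 0.13. Psmc2, an ATPase of the proteasome's cap, fell by 0.70 (adjusted p = 0.00095). Of 24 tested glycolysis and hypoxia genes 8 rose and 1 fell, or 37.5% called against 33.1% of all genes. Without LIF.NOG 2, 9 of them rose and 6 fell. Eno2, the neuronal enolase, read 5.95, 6.04, 6.46 and 6.56 on the Neurosphere arrays and 8.11, 8.46, 8.22 and 8.45 on the LIF.NOG arrays (difference 2.06 ± 0.17, adjusted p = 2.66e-06), and the glucose transporter Slc2a3 rose by 1.10 ± 0.12. Of 18 tested genes of fatty acid oxidation and ketone use 2 rose and 3 fell, or 27.8% called against 33.1%. Ppargc1a, a coactivator that raises mitochondrial number, fell by 1.06 (adjusted p = 0.00182).

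**Figure D4:**
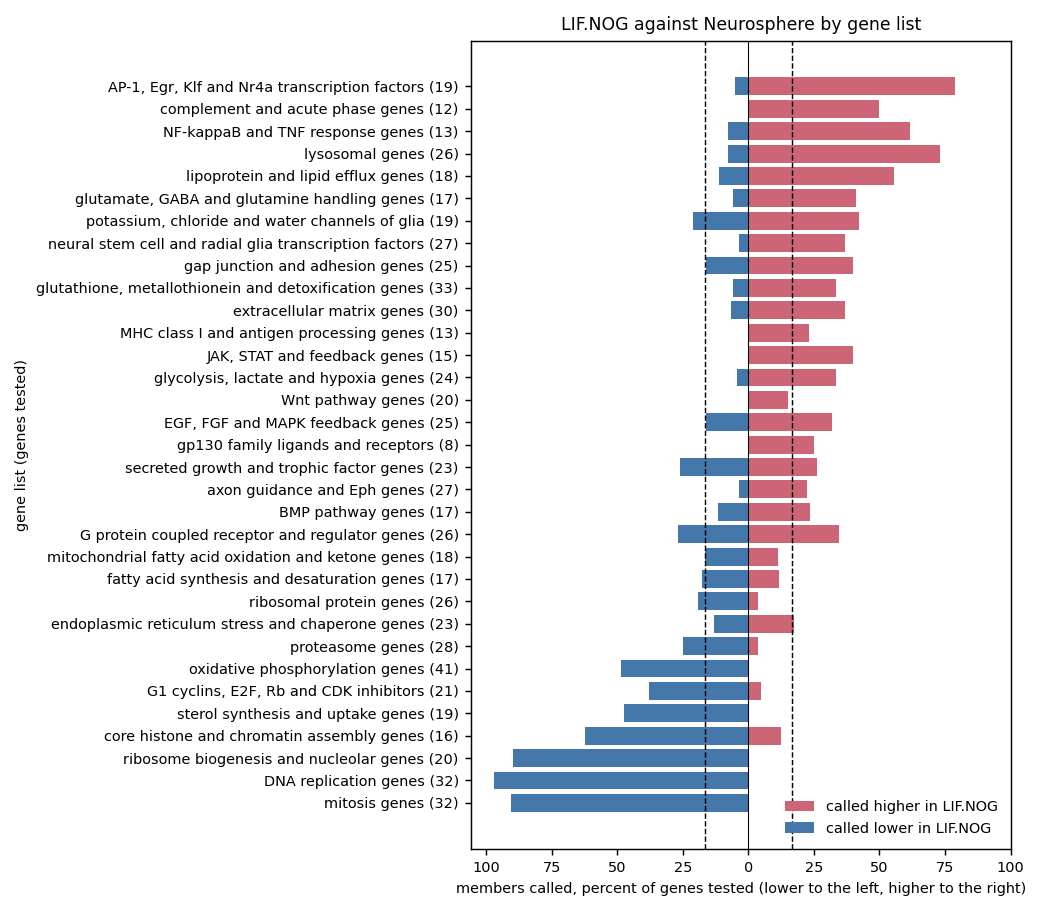
Share of tested members called higher (to the right) or lower (to the left) in LIF.NOG (x axis, percent) for the 33 gene lists (y axis, number of genes tested in brackets), sorted by median difference, with dashed lines at the 16.5% of all genes called in each direction. Replication, mitosis and ribosome biogenesis genes lie far to the left, and early response factors and lysosomal genes far to the right.

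**Figure D5:**
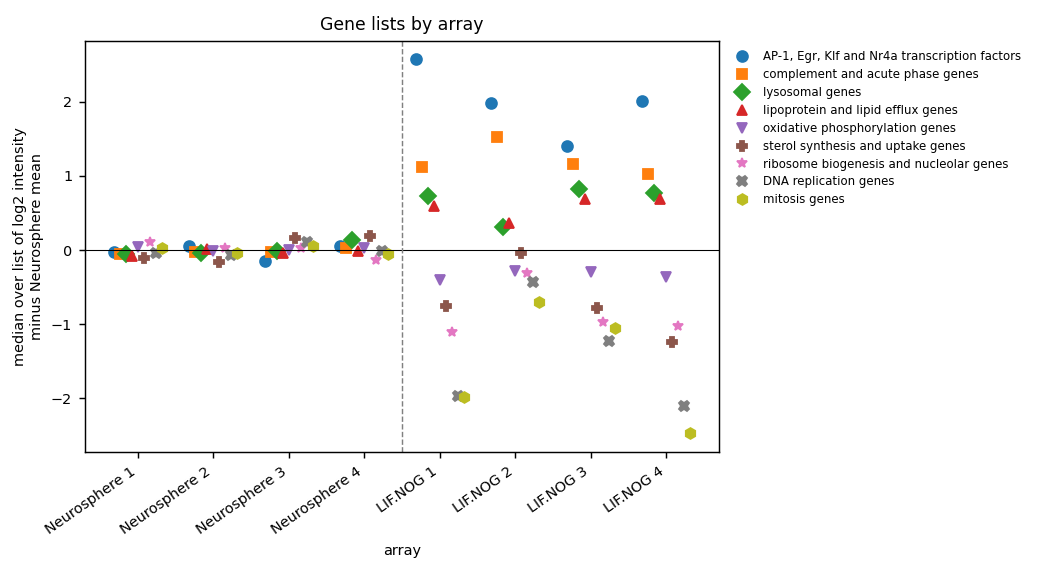
Median over a list of log2 intensity minus the Neurosphere mean (y axis) on each of the 8 arrays (x axis) for 9 lists, 1 symbol per list. Replication genes stand at -0.43 on LIF.NOG 2 and at -1.97, -1.23 and -2.10 on the other LIF.NOG arrays, while complement and acute phase genes stand at 1.53 on LIF.NOG 2, above 1.12, 1.17 and 1.02.

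Enzymes of 1-carbon metabolism and several signalling genes were among the 25 largest drops. Shmt1, which moves a carbon from serine to folate, read 8.59, 8.67, 8.74 and 8.19 on the Neurosphere arrays and 5.77, 7.60, 6.46 and 5.43 on the LIF.NOG arrays. The Shmt1 difference was -2.23 ± 0.35, adjusted p = 0.000355. Mthfd2 is a mitochondrial enzyme of 1-carbon metabolism. It read 10.73, 10.85, 10.45 and 10.53 on the Neurosphere arrays and 7.85, 10.34, 8.26 and 7.32 on the LIF.NOG arrays. LIF.NOG 2 lay close under the Neurosphere arrays. The Mthfd2 difference was -2.20 ± 0.52, adjusted p = 0.00531; -2.83 without LIF.NOG 2; -1.79, adjusted p = 0.0682 within the first row order. Cdca7, a target of MYC and E2F, read 11.78, 11.77, 11.61 and 11.65 on the Neurosphere arrays and 8.49, 10.33, 9.64 and 8.75 on the LIF.NOG arrays. The Cdca7 difference was -2.40 ± 0.34, adjusted p = 0.000178. Chchd10, a mitochondrial protein, read 8.60, 8.53, 8.48 and 8.53 on the Neurosphere arrays and 6.06, 7.61, 5.75 and 5.61 on the LIF.NOG arrays (difference -2.28 ± 0.33, adjusted p = 0.000198), and Ddit4l, an inhibitor of mTOR signalling, fell by 2.14 (adjusted p = 2.69e-05). Lgi2, a secreted neuronal protein, read 7.90, 7.80, 7.71 and 7.96 on the Neurosphere arrays and 5.14, 6.32, 5.85 and 4.99 on the LIF.NOG arrays and Arpp21, a phosphoprotein regulated by cyclic AMP, read 8.46, 8.61, 8.32 and 8.93 on the Neurosphere arrays and 6.20, 6.08, 7.02 and 6.14 on the LIF.NOG arrays; neither pair of groups overlapped, and with its probes averaged Arpp21 gave -0.83. Stac, an adaptor of voltage-gated calcium channels, was detected on all Neurosphere arrays and on no LIF.NOG array, at 6.77, 6.41, 6.34 and 7.07 on the Neurosphere arrays and 4.21, 4.53, 4.60 and 4.43 on the LIF.NOG arrays, a fall of at least 3.45-fold. Tmem158, a membrane protein induced by Ras signalling, read 12.15, 12.13, 12.00 and 11.86 on the Neurosphere arrays and 8.56, 10.01, 8.41 and 7.88 on the LIF.NOG arrays. The Tmem158 difference was -3.32 ± 0.32, adjusted p = 9.97e-06; -2.21 with its probes averaged. Hs3st2, which sulfates heparan chains, read 7.72, 7.72, 7.59 and 7.27 on the Neurosphere arrays and 4.46, 5.15, 4.58 and 4.43 on the LIF.NOG arrays and fell at least 6.26-fold. Tnnt1, a troponin of slow muscle, and Diras2, a small GTPase of the Ras family, gave differences of -2.54 ± 0.24 and -2.41 ± 0.27. Efs, an adaptor of tyrosine kinase signalling, and Cdr2, an antigen of cerebellar degeneration, gave -2.41 ± 0.21 and -2.40 ± 0.42. The tubulin gene Tuba1c fell by 2.38, Fignl1, of DNA break repair, by 2.29 and Fam111a, a protease that binds PCNA, by 2.17. Chst7, a carbohydrate sulfotransferase, fell by 2.09 and AI593442 by 2.10 (-1.19 with its probes averaged). Without LIF.NOG 2 the difference was -2.99 for Cdr2 and -3.03 for Tuba1c. Within the first row order Tuba1c gave -1.96, adjusted p = 0.0632 and Fam111a -1.77, adjusted p = 0.0573. In all, 25 genes were detected on 4 Neurosphere arrays and no LIF.NOG array, all called lower. They too were picked by detection on the same arrays, so their calls are no separate result. They include Dhrs7c, a dehydrogenase known from muscle, at 7.28, 7.45, 6.38 and 7.04 on the Neurosphere arrays and 4.86, 4.64, 4.81 and 4.73 on the LIF.NOG arrays, Rpp25, a subunit of RNase P, which fell at least 2.91-fold, and the myosin gene Myh8, which fell at least 2.45-fold.

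Stem cell regulators were not lower as a group. Of 27 tested neural stem cell and radial glia transcription factors 10 rose and 1 fell (median 0.36), or 40.7% called against 33.1% of all. The Notch targets Hes1 and Hey1, which hold progenitors back from neuronal fate, read 8.39, 8.39, 8.33 and 8.44 on the Neurosphere arrays and 10.39, 9.45, 10.23 and 10.18 on the LIF.NOG arrays for Hes1 and 8.94, 8.85, 9.50 and 9.48 on the Neurosphere arrays and 12.16, 10.81, 12.06 and 11.75 on the LIF.NOG arrays for Hey1. Their differences were 1.68 ± 0.20, adjusted p = 4.84e-05 and 2.50 ± 0.26, adjusted p = 1.58e-05. Hes5, another Notch target, read 7.60, 7.53, 8.01 and 8.30 on the Neurosphere arrays and 12.07, 8.50, 11.87 and 12.49 on the LIF.NOG arrays, so that LIF.NOG 2 stood near the Neurosphere arrays and the other 3 stood together far above. The Hes5 difference was 3.37 ± 0.64, adjusted p = 0.00141; 4.28 without LIF.NOG 2; 2.86, adjusted p = 0.056 within the first row order. Nfia, which starts glial fate, rose by 0.76 ± 0.15 (adjusted p = 0.0015). Sox9, its partner, rose by 0.83 ± 0.20 (adjusted p = 0.00562), but gave 0.77, adjusted p = 0.0823 within the first row order. Sox2, the pluripotency and stem cell factor, read 8.23, 8.49, 8.25 and 8.40 on the Neurosphere arrays and 8.60, 8.62, 8.63 and 8.63 on the LIF.NOG arrays, and its difference of 0.28 ± 0.14, adjusted p = 0.161 did not pass; under median scaling it was 0.40, adjusted p = 0.0254. Dlx2, a factor of interneuron progenitors, gave overlapping groups and a difference of -0.30 ± 0.26, adjusted p = 0.426. Gli3, a mediator of Hedgehog signals, fell by 1.13 (adjusted p = 0.00166).

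The EGF dose was lower in the LIF.NOG cultures, and feedback genes of its pathway moved both ways. Of 25 tested EGF, FGF and MAPK feedback genes 8 rose and 4 fell, or 48% called against 33.1% of all genes. The receptor gene Egfr read 11.22, 11.34, 11.40 and 11.16 on the Neurosphere arrays and 11.31, 11.06, 11.53 and 11.20 on the LIF.NOG arrays, with overlapping groups and a difference of -0.01 ± 0.13, adjusted p = 0.979. The phosphatases Dusp1 and Dusp5, which switch off MAP kinases, rose: Dusp1 read 9.37, 9.42, 8.97 and 9.40 on the Neurosphere arrays and 11.75, 12.26, 11.75 and 11.96 on the LIF.NOG arrays (difference 2.64 ± 0.18, adjusted p = 5.62e-07) and Dusp5 rose by 2.94 ± 0.28. Etv4, an ETS factor that ERK signalling induces, read 8.73, 8.47, 8.08 and 8.11 on the Neurosphere arrays and 5.90, 7.43, 6.80 and 6.28 on the LIF.NOG arrays. The Etv4 difference was -1.74 ± 0.27, adjusted p = 0.000374. Tnc, a matrix protein of the stem cell niche, read 10.38, 10.17, 10.09 and 9.91 on the Neurosphere arrays and 8.23, 10.73, 9.29 and 6.99 on the LIF.NOG arrays, from above the Neurosphere range on LIF.NOG 2 to far below it on LIF.NOG 4. Its difference of -1.33 ± 0.55, adjusted p = 0.0816 did not pass the test; without LIF.NOG 2 it was -1.97 (adjusted p = 0.000856) and without LIF.NOG 4 it was -0.72 and did not pass.

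Markers of cell types were set against the labels, which call the LIF.NOG cells astrocytes. Of 11 tested neurosphere and neural stem cell markers 3 rose and none fell, or 27.3% called against 33.1% of all genes. Without LIF.NOG 2, 3 were called higher and 2 lower, and within the first row order 1 was called higher. Their summed raw signal was 32379 to 39004 on the Neurosphere arrays and 46991 to 54689 on the LIF.NOG arrays. Of 13 tested astrocyte markers 9 rose and none fell, or 69.2% called. Without LIF.NOG 2, 8 were called higher and 1 lower, and within the 6 arrays of the first row order 6 were called higher. The summed raw signal of the list was 12437 to 14740 on the Neurosphere arrays and 31381 to 56382 on the LIF.NOG arrays. The classical marker S100b was not detected on any of the 8 arrays. Markers of myelinating oligodendrocytes rose too: 5 of 6 tested rose, or 83.3% called. Their list had summed raw signals of 933.6 to 1070 in neurospheres and 3739 to 8866 in LIF.NOG. Of its 9 genes with a probe, 4 were detected on all Neurosphere arrays and 6 on all LIF.NOG arrays. A marker could enter the test through the LIF.NOG arrays alone, so this count can lean towards rises. Cldn11, the tight junction protein of myelin, read 6.84, 7.37, 8.24 and 8.30 on the Neurosphere arrays and 12.08, 11.16, 11.90 and 12.73 on the LIF.NOG arrays. The Cldn11 difference was 4.28 ± 0.42, adjusted p = 9.97e-06. Mbp, myelin basic protein, read 6.18, 6.08, 5.44 and 5.67 on the Neurosphere arrays and 8.16, 8.51, 6.46 and 8.20 on the LIF.NOG arrays (difference 1.99 ± 0.36, adjusted p = 0.000925; 1.00 with its probes averaged), and Mag rose at least 3.09-fold. Opalin, found in mature oligodendrocytes, read 4.41, 4.93, 4.94 and 5.40 on the Neurosphere arrays and 7.33, 5.21, 8.72 and 8.12 on the LIF.NOG arrays, with LIF.NOG 2 inside the Neurosphere range. The Opalin difference was 2.42 ± 0.53, adjusted p = 0.00357; 3.13 without LIF.NOG 2; 1.99, adjusted p = 0.107 within the first row order. Of 7 tested oligodendrocyte progenitor markers 3 fell, or 42.9% called against 33.1% of all genes. They were Nkx2-2, at 6.77, 6.78, 6.55 and 5.80 on the Neurosphere arrays and 4.35, 5.38, 4.58 and 4.91 on the LIF.NOG arrays, Olig2, by 0.88, and Cspg4, by 0.87. Of 11 tested neuron markers 3 rose and none fell, or 27.3% called against 33.1% of all genes. Dcx, a microtubule protein of young neurons, read 5.29, 5.38, 4.52 and 5.39 on the Neurosphere arrays and 8.51, 8.27, 7.32 and 9.16 on the LIF.NOG arrays (difference 3.17 ± 0.38, adjusted p = 5.05e-05; 1.63 with its probes averaged) and Celf4, a neuronal RNA-binding protein, read 6.63, 6.68, 6.53 and 6.62 on the Neurosphere arrays and 9.69, 9.54, 8.38 and 9.68 on the LIF.NOG arrays. The Celf4 difference was 2.71 ± 0.25, adjusted p = 6.6e-06; 0.91 with its probes averaged. Of 13 listed ependymal and ciliated cell markers 5 were tested, and these rose. Of the 11 with a probe, 2 were detected on all Neurosphere arrays and 5 on all LIF.NOG arrays. Here too a marker could enter the test through the LIF.NOG arrays alone, so the count can lean towards rises. Tekt1, a filament of cilia, was detected on no Neurosphere array and read 4.44, 4.53, 4.46 and 4.44 on the Neurosphere arrays and 6.98, 5.98, 5.84 and 6.73 on the LIF.NOG arrays, and Rsph1, of the radial spokes, read 6.85, 6.96, 7.01 and 7.33 on the Neurosphere arrays and 9.63, 9.23, 7.68 and 8.09 on the LIF.NOG arrays. Of 6 tested pericyte and smooth muscle markers 2 fell, or 33.3% called against 33.1% of all genes. Acta2, smooth muscle actin, fell, at 12.95, 13.16, 12.64 and 12.83 on the Neurosphere arrays and 12.41, 11.79, 10.28 and 10.22 on the LIF.NOG arrays. The Acta2 difference was -1.72 ± 0.39, adjusted p = 0.00392; -1.38, adjusted p = 0.0889 within the first row order and -0.96, adjusted p = 0.101 with its probes averaged. Of 5 tested endothelial markers 2 rose, Flt1 and Vwf, or 40% called against 33.1% of all genes, while Pecam1, Cdh5 and Tek were not detected. Flt1, a receptor for VEGF, read 4.83, 4.73, 5.08 and 5.22 on the Neurosphere arrays and 5.77, 8.92, 6.16 and 5.70 on the LIF.NOG arrays: LIF.NOG 2 was highest by almost 3 log2 units. The Flt1 difference was 1.67 ± 0.53, adjusted p = 0.0267; 0.91 without it. Its call was lost in 8 of 20 alternative settings, among them without Neurosphere 1 (1.63, adjusted p = 0.0641), without Neurosphere 2 (1.60, adjusted p = 0.066) and on the authors' processed values (0.64, adjusted p = 0.154). Vwf, the clotting factor of endothelium, gave 0.68 ± 0.19, adjusted p = 0.0158, and was not called in 3 of 20 alternative settings, among them without LIF.NOG 4 (0.54, adjusted p = 0.0554) and without Neurosphere 4 (0.55, adjusted p = 0.0511). None of the 12 microglia markers with a probe was detected on any of the 8 arrays. How far cells of other types take part in the changes of other lists was not tested.

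The largest LIF.NOG rises were set against the BMP4 cultures, fitted in the same model, to see where LIF plus noggin differed from the other astrocyte protocol. Between LIF.NOG and BMP4 4737 genes were called, or 43.9%. This comparison shares the LIF.NOG arrays with the one above, and differences here are LIF.NOG minus BMP4. All BMP4 arrays and LIF.NOG 4 stood in the second row order of the authors' values, and LIF.NOG 1 to 3 in the first. Row order and treatment thus largely coincide here. The comparison was not repeated within a row order or without LIF.NOG 2. Of the 25 largest rises over neurospheres, 11 were higher in LIF.NOG than in BMP4, 6 were lower and 8 did not pass. Of the 25 largest drops 5 were higher, 9 lower and 11 did not pass. The genes described next were picked from both sides after their values were seen, with Timp1 and Id4 from outside those 50. Cldn11 averaged 5.44 on the BMP4 arrays and Cacng5 4.76, against 11.96 and 10.01 on LIF.NOG, with differences of 6.52 ± 0.42 (adjusted p = 4.28e-08) and 5.25 ± 0.46 (adjusted p = 9.66e-07). Ly6h and Egr4 were also higher in LIF.NOG than in BMP4, with differences of 3.79 ± 0.48 (adjusted p = 2.26e-05) and 5.65 ± 0.42 (adjusted p = 1.85e-07). Timp1 differed by 2.79 ± 0.37 (adjusted p = 3.86e-05) and Osmr by 1.28 ± 0.38 (adjusted p = 0.0134). Socs3 averaged 11.95 on BMP4 and 10.50 on LIF.NOG (difference -1.44 ± 0.33 (adjusted p = 0.00249)). Gfap was lower in LIF.NOG than in BMP4, with a difference of -2.90 ± 0.59 (adjusted p = 0.0012), as were Apoe, at -1.26 ± 0.34 (adjusted p = 0.00784), Aqp4, at -2.52 ± 0.20 (adjusted p = 3.98e-07), and Id4, at -2.43 ± 0.30 (adjusted p = 1.84e-05). Serpina3n, Fos and Clu gave -0.79 ± 0.37 (adjusted p = 0.101), 0.17 ± 0.20 (adjusted p = 0.548) and -0.71 ± 0.32 (adjusted p = 0.0857), and did not pass. Kcnc4 averaged 10.53 on BMP4 against 4.94 on LIF.NOG, and Chchd10 12.11 against 6.26.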

How the data were processed

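Biotin-labelled material from total RNA of the 12 samples was read on Illumina bead arrays. The deposited non-normalised table gives 1 intensity and 1 detection p-value per probe and array; the authors' processed intensity table was used as an alternative. Tools listed for them are BeadStudio 3 and lumi 2.15.1, per the submitters' processing notes, with no role or order. The Neurosphere 1 column stood in another row order, so its rows were matched by rank to the authors' table, with 46617 of its 46630 rows matched. Background was corrected by normexp with detection p-values and an offset of 16, then quantile normalised and put on a log2 scale (neqc, limma 3.58.1, R 4.3.3). Of 46609 probes 29962 have 1 gene symbol, 10 several and 16637 none. Probes with detection p under 0.05 on at least 4 of the 12 arrays were kept, and the brightest probe stood for a gene. A fit of the 12 arrays by group gave the differences, with Benjamini-Hochberg adjustment over 10787 genes. The fit was tested on simulated data.

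Most genes were named by rule. The rule took the 25 largest rises and drops, up to 4 called members of each list and a short list fixed by name. It also took genes detected on all 4 arrays of 1 group and none of the other, and genes with opposed probes. Each gene of the first part is named, of the other parts only some. Other genes were named outside the rule, among them Jak2, Lif, Cxcl12, Klf9, Cdc20, Mcm5 and Cdt1. Of these only Jak2 is marked as named after its values were seen. The members and lists were chosen with earlier results of these data known. An at-least fold compares the brighter group's mean with the dimmer one's, where each dim array takes the higher of its own value and the lowest detected signal. Alternatives covered normalisation, background, detection filter, probe choice, the authors' values, row order, blocks, array weights and single arrays left out. Of the 12 columns of authors' processed values, 6 stood in another row order. Coordinates and promoter sequences are RefSeq's, on GRCm38.p6.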

Additional observations from a re-analysis of the deposited data

Results flagged for a closer look

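Among the genes named here, 333 sets of 4 arrays were examined for a single array standing far from the other 3, and 24 values were picked out by Dixon's test. Chance picks out about 1 in 20 such sets. Of these values 11 lay on LIF.NOG 2, against 2 on LIF.NOG 3 and none on LIF.NOG 1 and 4. Over all genes detected on the 4 LIF.NOG arrays, LIF.NOG 2 was the array picked out for 3.95%, against 0.566% to 0.925% for the other LIF.NOG arrays; on the Neurosphere side the highest share was 2.5%, on Neurosphere 4.

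On LIF.NOG 2, Il6ra read 7.93 where the other LIF.NOG arrays read 5.57 to 5.96, and Flt1 read 8.92 against 5.70 to 6.16. Hes5 read 8.50 against 11.87 to 12.49, Apoc1 6.06 against 7.20 to 7.41 and Chrd 6.90 against 7.95 to 8.13. The histone genes H1f2, at 10.60 against 12.40 to 12.64, and H2bc4, at 10.67 against 11.37 to 11.49, were also lowest there. Kcnc4 read 5.83 against 4.60 to 4.70, Klf9 9.97 against 8.96 to 9.11, Sema3a 6.62 against 5.70 to 5.82 and Asns 9.58 against 9.13 to 9.20. On LIF.NOG 3, Celf4 read 8.38 against 9.54 to 9.69 and Arpp21 7.02 against 6.08 to 6.19.

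Of the Neurosphere arrays, Neurosphere 3 gave Dcx at 4.52, Dusp1 at 8.97, Id1 at 7.67 and Mt1 at 12.99, each the lowest of its group, and E2f2 at 8.81 and Tuba1c at 10.87, the highest. Neurosphere 4 gave the highest values of Egr4, at 8.60, Fdps, at 13.18, and H1f2, at 11.49. Neurosphere 1 gave the highest values of A2m, at 5.15, and Wnt5b, at 5.58.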

How the results depend on the processing

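Of the 179 tested genes named here, 165 were called, and 135 of these kept their call in all 20 alternative settings. Among called genes only Eef2k changed sign, to 0.49 with its probes averaged. Of the uncalled ones, Cdkn1b, Cdkn1c, Egfr, Glul and Slc1a3 changed sign in at least 1 setting. Within the 6 arrays of the first row order, which has 3 arrays per group, 1694 genes were called, 963 higher and 731 lower, and 25 named genes lost their call. Median scaling of the arrays in place of quantile normalisation gave 1144 genes called lower and 1899 higher, so that 62.4% of calls were higher against 50%; it moved the median over all genes from -0.01 to 0.08. Leaving out 1 array at a time gave between 2800 and 4347 genes called, 1430 to 2251 of them higher and 1370 to 2096 lower, with the most calls without LIF.NOG 2. Leaving out LIF.NOG 2 and the realigned Neurosphere 1 together, chosen after seeing the data, gave 3793. The other settings gave 3317 to 4911 calls. Within the first row order 6 of the 10 lipoprotein genes called higher were called higher again, as were 10 of 19 lysosomal, 4 of 10 adhesion and 3 of 10 stem cell transcription factor genes. Called lower again were 8 of 18 ribosome biogenesis, 9 of 20 oxidative phosphorylation, 4 of 9 sterol, 2 of 8 G1 and 2 of 10 histone and chromatin genes; the cause beyond fewer arrays was not tested. Fold sizes depended on background correction: for 83 named genes the fold moved by over 1.5 times on the authors' processed values and for 61 without correction, the Osmr difference being 3.61 ± 0.38 here, 2.20 without correction and 1.41 on the authors' values. Averaging the probes of a gene moved 31 folds as far. Whether the replicate numbers pair the samples could not be decided. The correlations of deviations from the group means were -0.05, 0.13, -0.02 and 0.26 for same-numbered arrays. For arrays with unlike numbers they ranged from -0.29 to 0.25. Deviations within a group depend on each other, so these values cannot settle it. With the replicate number as a block (replicate block) 3317 genes were called, 1717 higher and 1600 lower. With 4 arrays per group, array number limits precision, and genes near the detection limit have only a bound.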

Other observations

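Probes that carry no gene symbol were also called: of 4950 that were tested, with p-values adjusted apart, 504 were higher and 680 lower in LIF.NOG.

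Several genes had probes called in opposite directions, 26 of the 715 genes with 2 or more called probes. For Eef2k, the kinase that slows translation elongation, 1 probe fell by 1.46 while 2 rose by 1.81 and 1.11. For the splicing factor Srsf3 2 probes fell, by 1.01 and 0.91, and the other rose by 0.80. For the histone gene H2ac20 1 probe fell by 1.08 and the other rose by 0.77. Which transcripts these probes read was not analysed here.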
